A study of Mus musculus with 21 samples.

Results

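The comparison described here sets the most committed against the least committed FLK1+ mesoderm of 1 mouse reporter line. Mouse embryonic stem cells were grown as embryoid bodies, spheres of differentiating cells, and cells were sorted on day 4 by the receptors PDGFRalpha and FLK1. Cells carrying both receptors are called DP, and cells carrying FLK1 without PDGFRalpha are called SP. The line, TGET, carries the reporters T-GFP and Etv2-tdTomato, and each gate was split by tdTomato. One end was SP Etv2-positive (PDGFRalpha-FLK1+, tdTomato positive) and the other DP Etv2-negative (PDGFRalpha+FLK1+, tdTomato negative), with 3 libraries each, 6 of the 21 libraries in the series, chosen by their labels. The 2 intermediate groups of the same line, DP Etv2-positive and SP Etv2-negative, added 6 libraries that neither end uses. The other 9 libraries came from a wildtype line (A2lox.Cre, called WT), as DP and as SP cells, and from SP cells of a line with doxycycline-inducible Etv2 (iETV2), treated with 2 µg per ml from day 2.5. All 7 groups are cultured embryonic stem cell derivatives. The stem cells had been kept on irradiated embryonic fibroblast feeders and then without feeders before differentiation. The reporter results come from 1 line, and nothing in the labels says that T-GFP was used as a gate or that replicates were separate cultures, so a p-value here measures the spread between these samples.

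FLK1, the VEGF receptor encoded by Kdr, marks mesoderm that can give rise to endothelium, blood and heart. Etv2 is an ETS transcription factor that acts briefly in this mesoderm and is required for the endothelial and blood lineages. PDGFRalpha marks early and paraxial mesoderm and cardiac precursors, and its loss from FLK1+ cells goes with entry into the blood and endothelial path. The series is about what such progenitors give to vessels, blood and heart.

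Library totals at the ends ran from 25045553 to 32777143 assigned counts. Levels are given below as CPM, counts scaled to library size. Replicates of a reporter-line group correlated across genes at 0.990 to 0.994. Ribosomal RNA took 1.28% of counts in SP Etv2-positive replicate 3 and 1.40% in SP Etv2-negative replicate 2, against at most 0.432% in the other 10 reporter-line libraries. The mitochondrial share was 2.15 to 2.37% in DP Etv2-negative and 2.94 to 3.08% in SP Etv2-positive cells, so it moved with the groups compared, and its part in the results was not tested.

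Transcripts of the sorted proteins were read first, as a check of the labels and not as a finding. Etv2 stood at 23.2, 19.4 and 18.1 CPM in replicates 1 to 3 of DP Etv2-negative cells and at 79.6, 109 and 78.7 CPM in SP Etv2-positive cells. Pdgfra stood at 271, 276 and 213 CPM against 39, 47.6 and 25.8 CPM. Both followed the labels, with no overlap between the groups. Kdr, selected for in both gates, had 608, 615 and 537 CPM against 600, 631 and 580 CPM, and its log2 fold change of 0.04 ± 0.12 (standard error here and below) did not pass the test (edgeR quasi-likelihood, Benjamini-Hochberg adjusted p = 0.802). T, the streak gene behind the GFP reporter, was at 126, 114 and 70.5 CPM against 57.9, 62.5 and 39.7 CPM, a log2 fold change of -0.96 ± 0.30 (edgeR adjusted p = 0.0194) that lost its call in 4 of 15 alternative analyses.

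Of 17690 genes tested, 7565 (42.8%) differed between the ends at an adjusted p below 0.05 (edgeR quasi-likelihood, Benjamini-Hochberg). They were split into 3863 higher in SP Etv2-positive cells (21.8%) and 3702 lower (20.9%). A change of at least 2-fold was seen in 869 genes higher (4.91%) and 1006 lower (5.69%), and of at least 8-fold in 117 higher and 87 lower. The replicates of the ends did not overlap in 4949 genes higher (28.0%) and 5009 lower (28.3%), whether called or not. Since a large share of all genes was called, a member count of a gene list is read below against these shares. These are bulk libraries, in which more cells of a type and more RNA per cell cannot be told apart.

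With a mean of at least 5 CPM required, the 12 genes that rose most were Tal1, Cdh5, Sox7, Slc32a1, Ikzf1, Tek, Myb, Slc7a8, Hapln1, Cbfa2t3, Clic6 and Lmo2. Most are regulators or surface proteins of blood and endothelium. Only 76.4% of the windows of 50 bases of Slc32a1, a transporter of inhibitory transmitters, were unique among transcripts, and an antisense gene overlaps 24.9% of its exons, so its value is uncertain. The 12 largest decreases were Rimbp2, Pcdh8, Dll1, Mesp2, Lefty2, Pcdh19, Dll3, Gfra3, Frzb, Mesp1, Sp8 and Itga8, most of them genes of the primitive streak and of paraxial mesoderm, the precursor of the somites. RefSeq promoter sequences (build GRCm38.p6) were available for 183 of the 264 genes at least 4-fold higher and 212 of the 285 at least 4-fold lower. The letters AGATAA, a site that GATA factors bind, were found on either strand within 250 bases before to 50 after a start in 27 of the former (14.8%) and 13 of the latter (6.13%). Of 11226 tested genes with a sequence, 6.23% held them, and of all 27025 genes, 11.4%. The ETS core CCGGAA stood at 7.65% of the higher and 8.02% of the lower genes, against 27.3% of those tested and 15.2% of all. The E-box CANNTG was in 69.4% and 73.1%, against 63.0% and 72.1%, and the SOX core ACAAT in 18.6% and 23.1%, against 19.6% and 31.6%. Median GC content was 60.3% in both changed sets, 61.0% in tested genes and 52.7% in all. These shares describe letters in a short window and were not tested. 2 promoters from among the 12 largest increases are shown as examples with 1 match each, capitals marking the GATA letters (here as their reverse complement) in Tal1 and the ETS core in Cbfa2t3. Each covers the 250 bases before the start, 5′ to 3′ on the gene's strand: chr4:115056176-115056425 (plus strand) for Tal1 and chr8:122699110-122699359 (minus strand) for Cbfa2t3. The matches begin 205 and 214 bases before the start. A further listed start of either gene had no match to these letters.
Tal1: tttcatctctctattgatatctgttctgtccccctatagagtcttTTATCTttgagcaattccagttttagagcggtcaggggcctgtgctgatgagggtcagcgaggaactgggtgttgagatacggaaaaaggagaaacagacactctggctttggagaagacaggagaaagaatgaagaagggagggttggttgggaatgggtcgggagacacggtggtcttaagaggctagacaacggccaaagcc
Cbfa2t3: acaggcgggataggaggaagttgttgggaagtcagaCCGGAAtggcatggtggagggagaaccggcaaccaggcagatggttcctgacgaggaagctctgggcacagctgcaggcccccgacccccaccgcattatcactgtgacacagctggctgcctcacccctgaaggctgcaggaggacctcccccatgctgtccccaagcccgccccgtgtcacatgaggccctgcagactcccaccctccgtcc

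**Figure D1:**
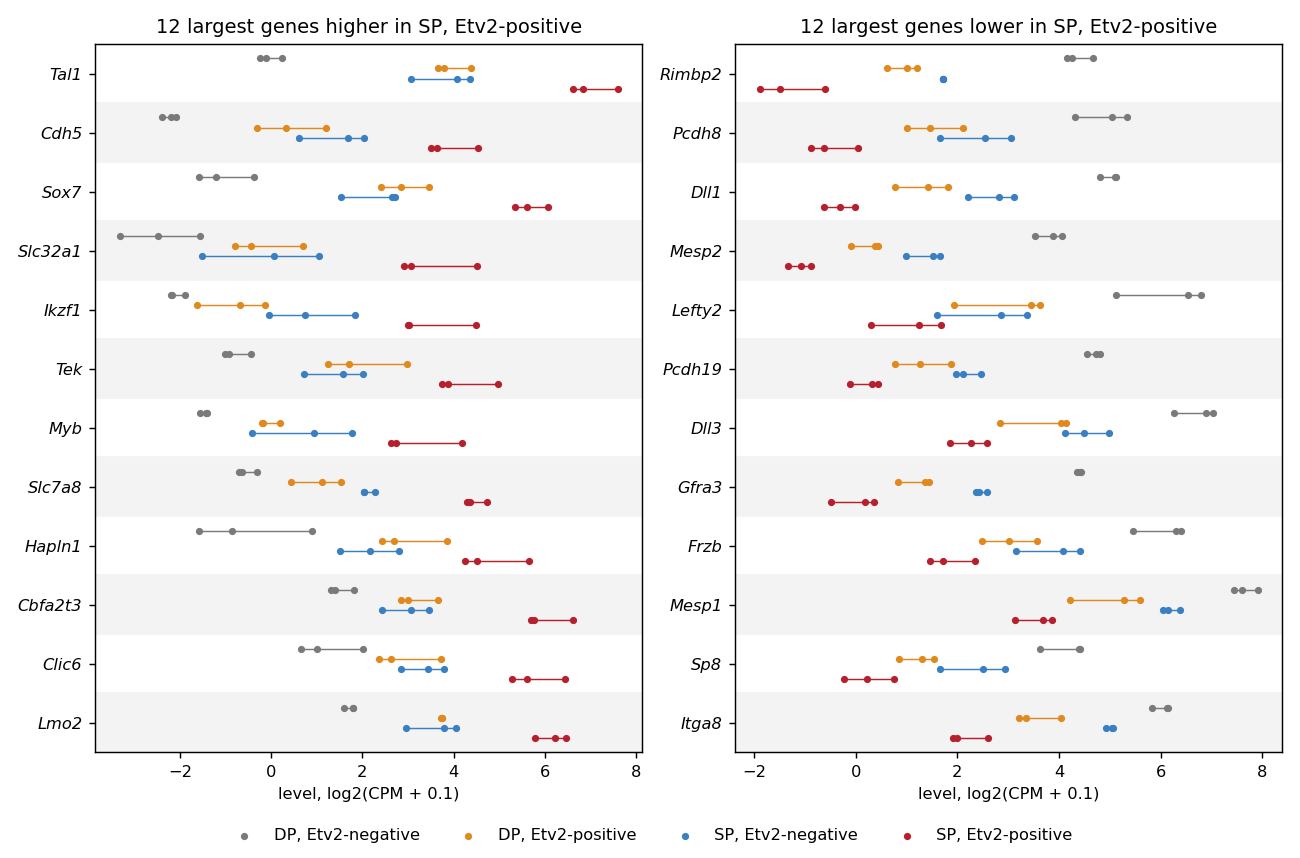
Levels of the 12 genes with the largest increase and the 12 with the largest decrease in SP Etv2-positive over DP Etv2-negative cells. Each point is 1 library on a log2(CPM + 0.1) axis, lines join the lowest and highest of the 3 libraries of a group, and both intermediate groups have means between the ends for all 24 genes.

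The regulators of blood and endothelium rose together. Of 29 such transcription factors tested, 25 were called higher, 2 lower (Meis1 and Tcf3) and 2 not called, with a median log2 fold change of 3.02 against -0.01 over all genes. Tal1 (ENSMUSG00000028717, mm10 chromosome 4, 115056426 to 115071755), a basic helix-loop-helix factor at the head of blood formation, was at 0.823, 1.08 and 0.741 CPM in DP Etv2-negative cells. In SP Etv2-positive cells it was at 97.7, 115 and 194 CPM. The groups were far apart, and replicate 3 was the highest at the committed end. The log2 fold change was 7.24 ± 0.44, or 152-fold (edgeR adjusted p = 1.47e-07). Lmo2, the LIM-domain partner that bridges Tal1 and GATA factors, rose from 3.37, 3.37 and 2.93 CPM to 55, 75 and 88.6 CPM, 22.6-fold. Sox7 (chromosome 14, 63943673 to 63950732), a SoxF factor of early endothelium, rose from 0.235, 0.331 and 0.673 CPM to 40.4, 48.7 and 66.8 CPM, or 123-fold. Every library of the committed end lay above every library of the other for all 3 genes, which was a condition of their choice. Ikzf1, a zinc-finger regulator of lymphoid and other blood cells, had 0.118, 0.121 and 0.168 CPM against 7.92, 8.08 and 22.5 CPM. Myb, needed for definitive blood stem cells, had 0.274, 0.271 and 0.236 CPM against 6.08, 6.56 and 18.2 CPM. Cbfa2t3, a corepressor that works with Tal1, rose 24.4-fold, from 2.39, 2.53 and 3.43 CPM to 51.7, 54.6 and 98.3 CPM. In these 3 genes replicate 3 again stood well above the other SP Etv2-positive libraries. That replicate was the highest in its group for all 12 of the largest increases, and DP Etv2-negative replicate 3 in its own group for 9 of them. SP Etv2-positive replicate 3 is also the library of its group with the high ribosomal RNA share. With it left out, all 12 stayed called, and the log2 fold changes fell from 6.52 to 5.84 for Ikzf1, from 5.28 to 4.58 for Myb and from 6.93 to 6.21 for Slc32a1. That of Slc32a1 was 6.27 and 8.39 without DP Etv2-negative replicates 2 and 3.

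Other members spanned a wide range of size. Gata2, a zinc-finger factor of blood progenitors, went from 8.23, 8.5 and 7.34 CPM to 63.8, 71.4 and 104 CPM, a log2 fold change of 3.31 ± 0.21. Gfi1b, a repressor of red cell and platelet precursors, was nearly absent at the uncommitted end, at 0.0784, 0 and 0.0337 CPM, and stood at 3.65, 2.97 and 10.3 CPM at the other. Erg, an ETS factor of endothelium and blood stem cells, rose 75.3-fold to levels of only 2.47, 2.71 and 5.96 CPM. This fold places its mean at the uncommitted end under the limit of 3 counts in a library (0.0915 to 0.12 CPM there), so its size is uncertain. Sox17, a SoxF factor shared with endoderm, rose 5.42-fold, with 76.2% of its windows unique. Runx1 and Fli1, also blood regulators, had log2 fold changes of 1.86 and 2.68. Runx1 was already at 13.7, 17.8 and 17.1 CPM in DP Etv2-negative cells. Meis1, a homeobox gene of blood stem cells, heart and limb, moved the other way, from 7.41, 9.46 and 13.4 CPM to 3.06, 4.71 and 3.77 CPM.

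Surface and junction genes of endothelium showed the same direction in 20 of 25 tested, with 4 lower and 1 not called and a median of 1.90. Their summed level overlapped between the ends, at 260 to 307 CPM in DP Etv2-negative and 305 to 472 CPM in SP Etv2-positive cells. It was 184 to 216 CPM in DP Etv2-positive and 200 to 244 CPM in SP Etv2-negative cells. Cdh5 (chromosome 8, 104101625 to 104144511), the VE-cadherin of endothelial junctions, was at 0.118, 0.0904 and 0.135 CPM, close to the limit of 3 counts, and reached 11.3, 12.3 and 23.1 CPM at the committed end. Its log2 fold change was 7.05 ± 0.59 (edgeR adjusted p = 1.66e-06). Tek, the TIE2 receptor for angiopoietins, rose 40.6-fold, from 0.392, 0.422 and 0.64 CPM to 13.3, 14.7 and 31.6 CPM. Its relative Tie1 had 0.0392, 0.0301 and 0.168 CPM against 1.51, 1.45 and 5.41 CPM, and its log2 fold change of 5.07 became 6.19 without DP Etv2-negative replicate 3 and 4.15 without SP Etv2-positive replicate 3. The groups were separate for Tie1 as well as for Tek, where this was a condition of choice. Pcdh12, a protocadherin of endothelial contacts kept on the cadherin list, rose 45.3-fold, Esam 18.2-fold and Vwf, the von Willebrand factor, 15.2-fold. The log2 fold change of Vwf, 3.93, became 4.52 without DP Etv2-negative replicate 3. Genes of mature endothelium that did not pass the filter on low counts included Cldn5, with 0 counts in the 3 DP Etv2-negative libraries together and 19 in the SP Etv2-positive ones, and Emcn, with 0 and 5. The 4 that fell were Cd93 (log2 fold change -3.34), the thrombin receptor Thbd (-3.03), Jam2 (-0.99) and the apelin receptor Aplnr (-0.83).

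Blood cell genes rose in part. Of 16 leukocyte and platelet genes, 9 rose, 1 fell and 6 did not pass the test. Itga2b, the CD41 integrin of the first blood progenitors and of platelets, went from 0.98, 1.08 and 1.04 CPM to 6.19, 6.49 and 19.9 CPM, 10.4-fold, and its partner Itgb3 rose 10.3-fold. Without SP Etv2-positive replicate 3 their log2 fold changes fell from 3.38 to 2.60 and from 3.37 to 2.78. Lcp1, an actin-bundling protein of leukocytes, was higher 8.17-fold without overlap. Ptprc, the CD45 gene of mature leukocytes, had 0 and 1 counts in all and was not tested. Of 13 erythroid and heme genes, 7 were higher, 1 lower and 5 not called, with a median of 0.24. The embryonic globin gene Hbb-bh1 was not counted in any DP Etv2-negative library and had 1.51, 1.93 and 6.71 CPM in SP Etv2-positive ones, at least 28.8-fold higher against a limit of 3 counts in a library (0.117 CPM at most, for counting error only). Without SP Etv2-positive replicate 3 this bound became 14.7-fold. Alas2, the erythroid enzyme that starts heme synthesis, had 0.705, 0.542 and 0.471 CPM against 4.02, 4.75 and 12.4 CPM, with 85.9% of its windows unique. Its log2 fold change of 3.63 fell to 2.94 without SP Etv2-positive replicate 3. Among other heme enzymes, Fech and Urod had log2 fold changes of 0.23 and -0.52. The adult globin genes Hba-a1 and Hba-a2 did not pass the filter.

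Among signals of the vascular environment, 8 of 17 genes of the VEGF, apelin and nitric oxide axis were higher and 3 lower. The share higher passed the 21.8% of all genes called higher, and the share lower did not pass the 20.9% called lower. Nos3, the endothelial nitric oxide synthase, rose 7.48-fold from 0.274, 0.392 and 0.505 CPM to 1.99, 2.15 and 4.76 CPM, with 79.7% of its windows unique. Antisense genes overlap 32.3% of its exons, so its value is uncertain. Flt4, the VEGF receptor of lymphatic and early vessels, rose 3.20-fold, and Vegfa and Flt1 had log2 fold changes of 1.12 and 0.84. Apela, an apelin receptor ligand with 73.1% of its windows unique, was lower by 1.33 on the log2 scale, a decrease that lost its call in 5 of 15 alternatives and became -0.71 without DP Etv2-negative replicate 3. Pdgfb, the ligand of PDGFRbeta, rose 13.5-fold, from 2.51, 2.02 and 3.06 CPM to 37.8, 33.2 and 30.9 CPM, so that a ligand of the family rose where the receptor used for sorting was low. Of 14 arterial and Notch genes, 5 rose and 5 fell. The gap junction gene Gja4 (13.5-fold) and the ephrin Efnb2 (3.04-fold) rose, and the Notch ligand Jag1 fell, from 32.6, 40.4 and 33.9 CPM to 7.89, 9.31 and 8.29 CPM, together with Cxcr4 (2.70-fold lower). The groups did not overlap for these 4 genes, and the log2 fold change of Gja4 fell from 3.76 to 3.16 without SP Etv2-positive replicate 3.

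**Figure D2:**
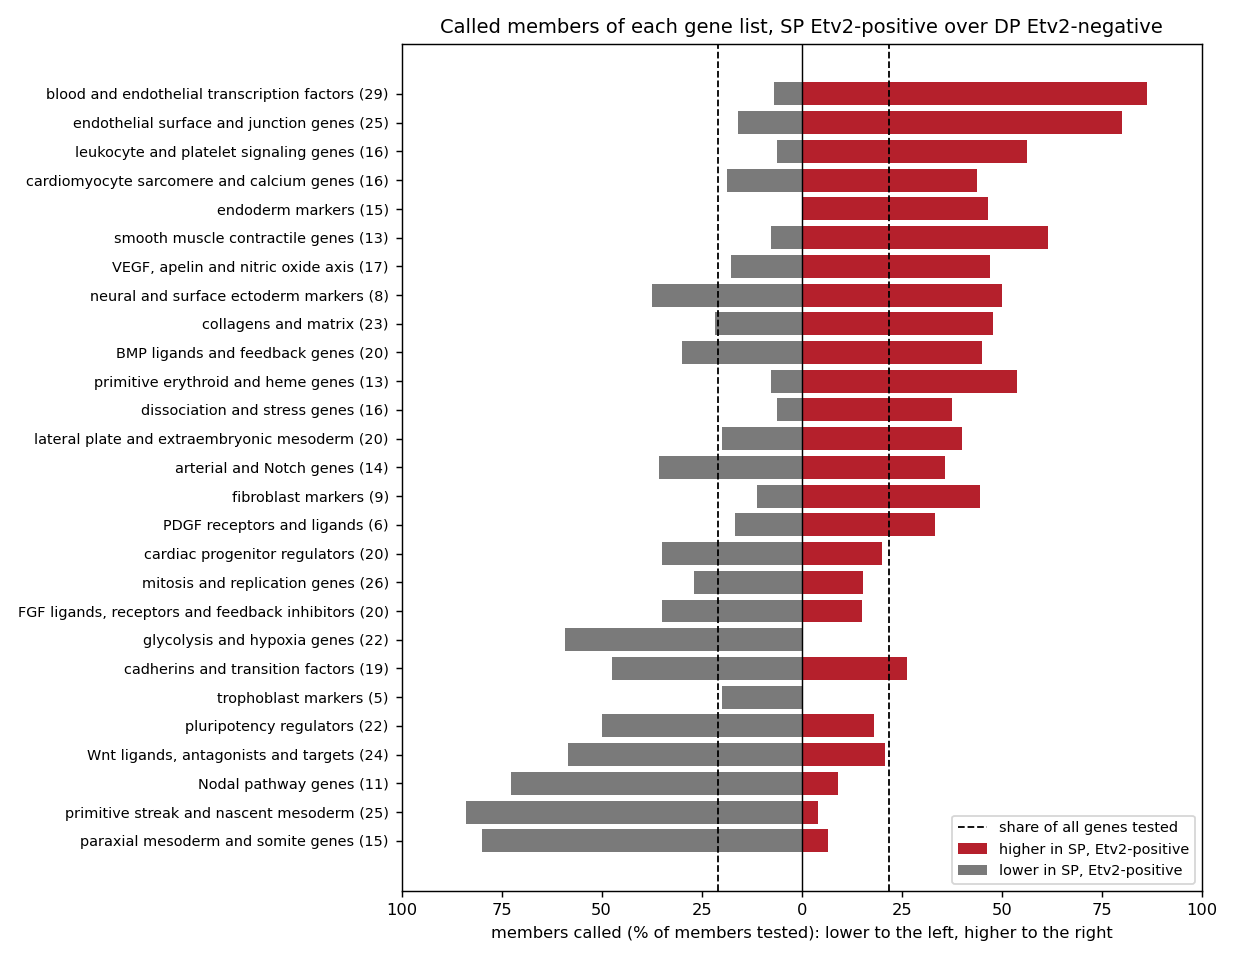
Share of each list's tested members (number in brackets) called higher, to the right, or lower, to the left, in SP Etv2-positive over DP Etv2-negative cells, ordered by the median log2 fold change. Dashed lines give the shares of all genes tested, 21.8% higher and 20.9% lower, and the blood and endothelial factors stand at the top and the streak and paraxial genes at the bottom.

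Streak and nascent mesoderm genes fell in 21 of 25 tested, with a median of -2.22. Mesp1 (chromosome 7, 79792241 to 79793788), a factor of the first cardiovascular mesoderm, went from 240, 195 and 175 CPM to 12.7, 14.4 and 8.63 CPM, 17.1-fold lower (edgeR adjusted p = 6.18e-07). Its neighbour Mesp2, active in forming somites, went from 16.6, 14.6 and 11.5 CPM to 0.295, 0.445 and 0.377 CPM, 37.8-fold lower. Lefty2, a secreted inhibitor of Nodal, fell 36.9-fold, from 111, 93.2 and 34.9 CPM to 2.28, 3.12 and 1.13 CPM. Replicate 3 was the low library of both groups for Lefty2. It was the lowest of DP Etv2-negative cells for all 12 of the largest decreases, and of SP Etv2-positive cells for 10 of them. Separation of the ends was a condition for choosing these 12 genes. Lhx1, a factor of the streak and of intermediate mesoderm, fell 14.0-fold, and Sp8, a zinc-finger factor of the streak and tail bud, 15.9-fold. The only member called higher was Foxa2 (log2 fold change 0.74), a factor of the anterior streak and endoderm, and this call was lost without any 1 of DP Etv2-negative replicates 2 and 3 and SP Etv2-positive replicates 1, 2 and 3 (0 members higher in each case).

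Paraxial and somite genes fell in 12 of 15 tested, with a median of -3.56, the lowest of the 27 lists, which share members such as Mesp2, Tbx6 and Msgn1 with the streak list. Dll1 (chromosome 17, 15367354 to 15376872), the Notch ligand of the presomitic mesoderm, went from 34.9, 34.1 and 28 CPM to 0.553, 0.705 and 0.891 CPM, 44.7-fold lower. An antisense gene overlaps 20.5% of its exons, and the strand setting of the counting is not given in the sources used here. Dll3, its modulator in somite formation, fell 22.9-fold, from 130, 118 and 77.1 CPM to 4.75, 5.93 and 3.53 CPM. The protocadherins Pcdh8, a somite adhesion protein, and Pcdh19 had log2 fold changes of -5.59 and -4.58. Rimbp2 (chromosome 5, 128757791 to 128953486), known as a synaptic scaffold, had the largest decrease, from 25.5, 19.1 and 17.7 CPM to 0.258, 0.556 and 0.171 CPM, 63.0-fold. Its log2 fold change of -5.98 became -6.58 without SP Etv2-positive replicate 2. For each of these genes, separate groups were a condition of choice. Meox1, a somite homeobox gene, was the only member higher, with a log2 fold change of 0.72.

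In the Nodal, Wnt and FGF lists, the shares that rose did not pass the 21.8% of all genes called higher. The shares that fell passed the 20.9% called lower. In the BMP list both shares passed those of all genes. Of 11 Nodal pathway genes, 8 fell and 1 rose (Smad7, 0.30), and of 24 Wnt genes 14 fell and 5 rose. The Nodal coreceptor Tdgf1 went from 555, 622 and 303 CPM to 58.3, 80.2 and 26.2 CPM, lower by 3.17 on the log2 scale, with 87.3% of its windows unique. Sp5, a direct target of Wnt signaling, fell 6.30-fold, the ligand Wnt8a 10.9-fold and the secreted antagonists Sfrp1 and Frzb 10.8-fold and 19.2-fold. Lgr5, a receptor that strengthens Wnt signals, rose 6.84-fold, from 3.72, 3.77 and 5.15 CPM to 27.5, 23.8 and 35.3 CPM. FGF genes fell in 7 of 20 and rose in 3. Fgf8, the main FGF of the streak, fell 8.32-fold, and Etv5 and Dusp6, targets of FGF signaling, fell 2.07-fold and 1.81-fold. BMP genes were higher in 9 of 20 and lower in 6. The ligands Gdf6 and Bmp6 rose 3.47-fold and 2.61-fold, and the antagonists Nog and Grem1 fell 3.85-fold and 4.20-fold, Grem1 at levels under 1 CPM in all 6 libraries.

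Pluripotency regulators fell in 11 of 22 and rose in 4. Pou5f1, the OCT4 gene, went from 157, 138 and 107 CPM to 28, 29.1 and 20.4 CPM, 5.20-fold lower, with 84.1% of its windows unique. Nanog, its partner in stem cells, fell 5.95-fold and Otx2, a gene of the primed epiblast, 11.5-fold. The 4 that rose were Tfcp2l1 (1.44), Klf5 (1.31), Esrrb (1.14) and Lin28b (0.41 on the log2 scale). Sox2 was under 5 CPM throughout and lower by 1.04 on the log2 scale, with the call lost in 1 of 15 alternatives.

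Of 20 cardiac progenitor regulators, 4 were higher, 7 lower and 9 not called. The 4 stood near the 21.8% of all genes called higher, and the 7 passed the 20.9% called lower. Nkx2-5, a homeobox factor of early heart cells, went from 2.55, 2.17 and 1.48 CPM to 12.1, 13.3 and 12.5 CPM, a log2 fold change of 2.62 ± 0.16 (edgeR adjusted p = 1.64e-07). Tbx5, a T-box factor of the first heart field, rose 4.16-fold, from 3.37, 2.98 and 2.89 CPM to 13.2, 12.4 and 12.8 CPM. Isl1, a marker of the second heart field, went from 25.1, 22.1 and 24.8 CPM to 5.2, 5.27 and 4.56 CPM, 4.79-fold lower (edgeR adjusted p = 1.43e-08). The replicates of these 3 genes lay close together and the groups were separate. Irx3 fell 6.11-fold and Mef2c 2.88-fold, the latter losing its call in 2 of 15 alternatives. Gata4 and Hand2, which act in both heart fields, were lower by 0.42 and 0.49 on the log2 scale, and Gata6 and Hand1 were not called, at -0.01 and 0.05.

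Contractile genes were higher in 7 of 16 for heart muscle and 8 of 13 for smooth muscle, and lower in 3 and 1. Ryr2, the calcium release channel of heart muscle, rose 5.46-fold from 1.49, 2.38 and 3.23 CPM, and Tnnc1, a troponin, 4.53-fold from 2.66, 2.71 and 4.81 CPM. Myl9 and Cnn2, proteins of smooth muscle and the cytoskeleton, rose 5.81-fold and 3.52-fold. Ttn, the giant spring protein of the sarcomere, was lower by 1.18 on the log2 scale, and Myl7 and Tnni3 by 0.65 and 0.55. The 1 smooth muscle list gene that fell, Itga8, an integrin, dropped 14.6-fold. Among 20 lateral plate genes 8 were higher and 4 lower, the 8 becoming 4 without DP Etv2-negative replicate 1 or 2 and 5 without SP Etv2-positive replicate 1.

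Matrix genes rose in 11 of 23 and fell in 5. Hapln1, which links hyaluronan to proteoglycans, rose 37.0-fold, from 0.235, 0.452 and 1.75 CPM to 19, 22.6 and 50.1 CPM. DP Etv2-negative replicate 3 was the high library of its group, and without it the log2 fold change of Hapln1 went from 5.21 to 6.40. The basement membrane genes Lama4 and Nid1 rose 3.56-fold and 3.29-fold, and Col4a1 and Col4a2 had log2 fold changes of 0.72 and 1.02. The cartilage-type collagen gene Col9a1 fell 7.09-fold. Col1a1 rose from 51.6, 55.4 and 153 CPM to 267, 223 and 178 CPM, with DP Etv2-negative replicate 3 standing near the lowest library of the other end. Its log2 fold change of 1.36 became 2.05 without that library.

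Glycolysis and hypoxia genes fell in 13 of 22 and rose in none, with a median of -0.55; the 13 became 8 without DP Etv2-negative replicate 3 or SP Etv2-positive replicate 1 or 2. Pfkl, a phosphofructokinase, went from 430, 290 and 493 CPM to 155, 148 and 223 CPM, 2.31-fold lower. Pdk1, a pyruvate dehydrogenase kinase, went from 51.1, 34 and 73.9 CPM to 13.5, 11.8 and 34.3 CPM. Within each replicate number it was lower at the committed end. For Pdk1 the highest committed library just passed the lowest uncommitted one, and its decrease of 1.41 on the log2 scale lost its call in 3 of 15 alternatives and became 2.07 without SP Etv2-positive replicate 3. Bnip3 and Pgk1 fell 3.84-fold and 2.11-fold, but only 36.8% and 32.6% of their windows were unique, so related copies may share their counts. The log2 fold change of Bnip3 went from -1.94 to -2.87 without SP Etv2-positive replicate 3. Mitosis and replication genes moved little: 4 of 26 were higher and 7 lower, with log2 fold changes from -0.36 (Cdc20) to 0.72 (Ccnd3) among those called.

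Markers of other cell types were also counted, to be read against the 21.8% of all genes called higher and the 20.9% called lower. Endoderm markers were higher in 7 of 15 and lower in none, with a summed level of 158 to 170 CPM at the uncommitted and 261 to 298 CPM at the committed end. Sox7 and Sox17, which endothelium also uses, are among the 7, as are Apoa1, Spink1, Trh and Foxa2. Spink1 lost its call in 7 of 15 alternatives, and Foxa2 lost it without single libraries, as given above. The log2 fold change of Apoa1, an apolipoprotein, was 3.52, and 4.21 without DP Etv2-negative replicate 2. The list members Afp, Alb and Ttr did not pass the filter on low counts. They had 3, 2 and 9 counts over the DP Etv2-negative and 1, 0 and 5 over the SP Etv2-positive libraries. Fibroblast markers were higher in 4 of 9 and lower in 1, summing to 360 to 524 and 498 to 632 CPM, and Dcn and Lum had 0 counts in all 6 libraries. Neural and surface ectoderm markers were higher in 4 of 8 and lower in 3, summing to 247 to 405 and 581 to 865 CPM, while Sox1 had 7 and 14 counts and Pax6 18 and 4. The 4 that rose were the neuronal tubulin Tubb3 (15.3-fold), the keratins Krt18 and Krt8 and the filament gene Nes. Trophoblast markers showed 1 of 5 lower, near the share of all genes, and none higher. Their sums were 424 to 648 and 459 to 583 CPM, with Gcm1 and Tpbpa at 0 counts. Stress genes were higher in 6 of 16 and lower in 1, summing to 676 to 780 and 788 to 990 CPM, and Atf3 rose 2.85-fold while Egr1 fell 1.95-fold. The part of these cells and of handling in the results was not tested.

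For most genes at least 2-fold apart, the intermediate groups had means between the ends. Of the 869 genes at least 2-fold higher, 636 (73.2%) had both intermediate means between those of the ends, and of the 1006 lower, 767 (76.2%). Among all genes called at any size, the shares were 62.1% of those higher and 65.3% of those lower. Genes picked for a wide gap leave more room for a mean to fall inside it, so these shares do not test an ordered series. Tal1 was at 12.5, 13.7 and 20.9 CPM in DP Etv2-positive and at 8.25, 16.9 and 20.4 CPM in SP Etv2-negative cells, so both groups stood above DP Etv2-negative and below SP Etv2-positive cells. The difference between these groups did not pass the test (log2 difference 0.05 ± 0.32, edgeR adjusted p = 0.932). DP Etv2-positive cells stood at or above SP Etv2-positive cells in 161 of the 869 genes (18.5%) and SP Etv2-negative cells in 29 (3.34%). Of all 3863 genes called higher at any size, 807 (20.9%) stood at or above in DP Etv2-positive cells. Among list members called higher at any size, this was the case for 5 of 7 heart muscle genes, 6 of 8 lateral plate genes and 0 of 25 blood and endothelial factors.

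DP Etv2-positive over SP Etv2-negative cells asks whether a gene went with the reporter or with the gate. In that contrast 2758 genes (15.6%) were called, 1496 higher (8.46%) and 1262 lower (7.13%). The total fell to 1207 without SP Etv2-negative replicate 1, 1630 without its replicate 3, 1819 without its replicate 2 and 1704 without DP Etv2-positive replicate 1. Of the 869 genes higher at the committed end, 190 (21.9%) were higher in DP Etv2-positive cells, on the side of the reporter, and 15 (1.73%) were lower, on the side of the gate. The other 664 were not called, and a gene that moved equally with reporter and gate would be among such genes. The 190 and the 15 made up 12.7% of the genes called higher and 1.19% of those called lower in that contrast. Of the 1006 lower genes, 324 (32.2%) were lower with the reporter, 6 (0.596%) were higher and 676 were not called. The 324 and the 6 made up 25.7% of the genes called lower and 0.401% of those called higher. The 190 became 120 and the 324 became 193 without SP Etv2-negative replicate 1, and the 324 became 204 without DP Etv2-positive replicate 1. The 15 became 5 without DP Etv2-positive replicate 1, 6 and 7 without SP Etv2-negative replicates 2 and 3, and 9 and 23 without DP Etv2-negative replicates 1 and 3. The 6 became 10 without DP Etv2-positive replicate 3, and 2 and 3 without SP Etv2-negative replicates 1 and 3.

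Named genes show both forms. Nkx2-5 had 7.06, 7.01 and 6.23 CPM in DP Etv2-positive cells against 2.37, 2.63 and 2.08 CPM in SP Etv2-negative ones, and the latter overlapped the DP Etv2-negative level. Tbx5 likewise was higher in the reporter-positive group (log2 difference 1.22, edgeR adjusted p = 0.000331), and Isl1 lower (-1.40, edgeR adjusted p = 7.76e-06). The glycolysis and hypoxia list had 10 of 22 members lower and 0 higher in this contrast. Pdk1 was at 11, 9.48 and 22.8 CPM in DP Etv2-positive and 51.6, 33.6 and 83.5 CPM in SP Etv2-negative cells, so its level followed the reporter in either gate. Among genes that differed in both contrasts with the largest difference in the second, Zfp711, Gdf6, Hoxb6 and Gucy1a1 were higher (between the ends, the log2 fold changes of Hoxb6 and Gucy1a1 went from 1.56 to 2.63 and from 1.51 to 2.38 without DP Etv2-negative replicate 3) and Cyp2s1, Alox15, Ndufa4l2 and Pdk1 lower with the reporter. Cyp2s1, a cytochrome P450 enzyme, stood at 5.41, 4.31 and 5.39 CPM against 21.6, 22.3 and 28.5 CPM, and Alox15, a lipoxygenase, at 10.1, 10.6 and 7.87 CPM against 40.3, 43.8 and 28.2 CPM. Slc7a8, an amino acid transporter, was lower in DP Etv2-positive than in SP Etv2-negative cells (log2 difference -1.05, edgeR adjusted p = 0.0102), and both groups stood between the ends.

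Several contractile and matrix genes were highest in DP Etv2-positive cells rather than at either end. Col1a1 was at 354, 382 and 526 CPM there, above its 267, 223 and 178 CPM in SP Etv2-positive and 223, 170 and 175 CPM in SP Etv2-negative cells. Tnnc1 stood at 24.4, 17.1 and 24.8 CPM there, against 15.4, 16.9 and 13.9 CPM at the committed end. The reporter effect in SP cells minus that in DP cells was -2.04 for Col1a1 (edgeR adjusted p = 0.0351) and -1.87 for Tnnc1 (edgeR adjusted p = 0.013). Across all genes this difference was called for 702 (3.97%). That of Col1a1 lost its call in 9 of 19 alternatives and that of Tnnc1 in 0. Some genes matched at the ends but differed between the intermediate groups. Pdgfrb, the other PDGF receptor, was at 46.4, 49.1 and 58.5 CPM and 62.9, 57.2 and 42.3 CPM at the ends, and at 80.3, 88 and 104 CPM in DP Etv2-positive against 59.5, 49.3 and 50 CPM in SP Etv2-negative cells. Arhgef10l, Col5a2 and Wscd2 were likewise higher, and Elf3, St14, Gbp3 and Grik3 lower, in DP Etv2-positive cells with end differences within 0.25 on the log2 scale.

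**Figure D3:**
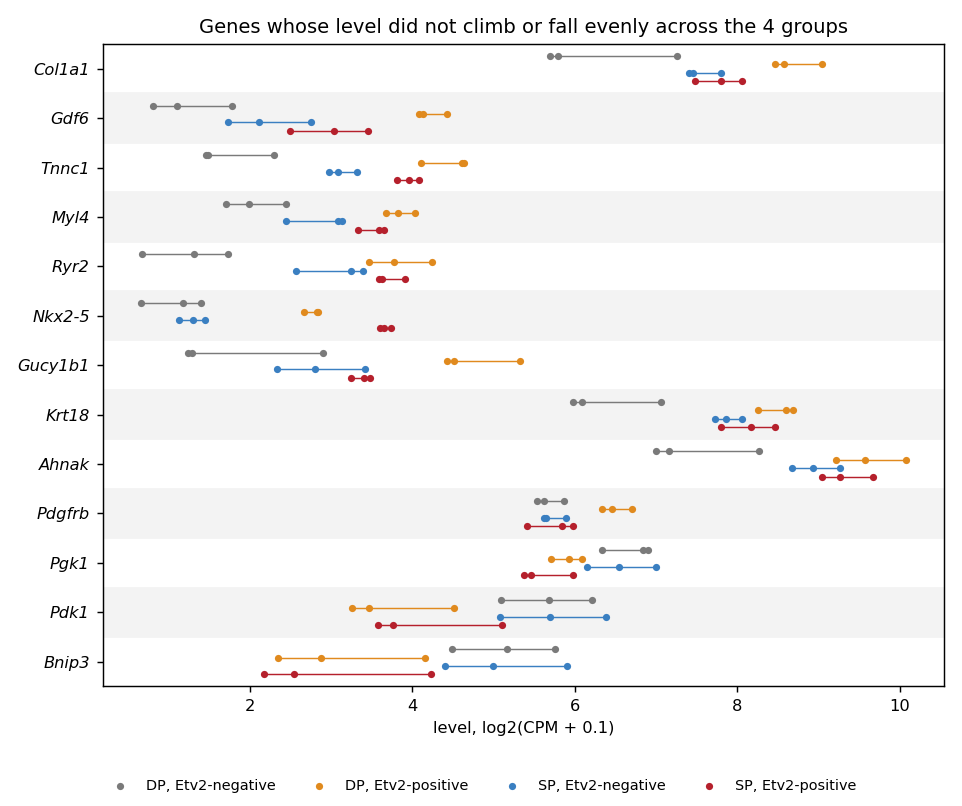
Levels of 13 genes, chosen after their values were seen, whose level did not climb or fall evenly across the 4 reporter-line groups. Each point is 1 library on a log2(CPM + 0.1) axis and lines join the lowest and highest of a group. Col1a1 is highest in DP Etv2-positive cells, Nkx2-5 is higher in both reporter-positive groups, and Pdk1 is lower in them.

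The second set of libraries shares none with the comparison of the ends and was counted separately. Pseudogenes took 12.2 to 14.4% of counts in the reporter-line libraries and 0.549 to 0.636% in the second set, a difference between the sets whose part in the results was not tested, and levels are compared only within a set. In WT cells, SP over DP asks what the gate brings without a split by reporter. It called 2580 of 16288 genes (15.8%), 1479 higher (9.08%) and 1101 lower (6.76%), and the total fell to 1509 without WT SP replicate 1 and 1525 without WT DP replicate 3. Of the 869 genes higher between the ends, 805 were tested in WT, of which 590 (73.3%) were higher in WT SP cells and 0 lower, against 9.34% higher and 7.12% lower over the 15354 genes tested in both sets. They made up 41.1% of all genes higher in WT SP. Of the 1006 lower genes, 913 were tested, of which 456 (49.9%) were lower and 0 higher, 41.7% of all genes lower in WT SP. DESeq2 gave 0 and 1 genes of opposite direction. Tal1 was at 10.9, 15.7 and 10.6 CPM in WT DP and 161, 126 and 137 CPM in WT SP cells, a log2 fold change of 3.51 ± 0.15. Dll1 was at 51.4, 56 and 46.6 CPM against 5.42, 9.51 and 6.16 CPM, and Mesp1 at 241, 185 and 218 CPM against 50.5, 49.4 and 73.7 CPM. These genes separated the WT gates without overlap. The blood and endothelial factors were higher in 24 and lower in 1 of 28, and the paraxial genes lower in 10 and higher in 0 of 15.

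**Figure D4:**
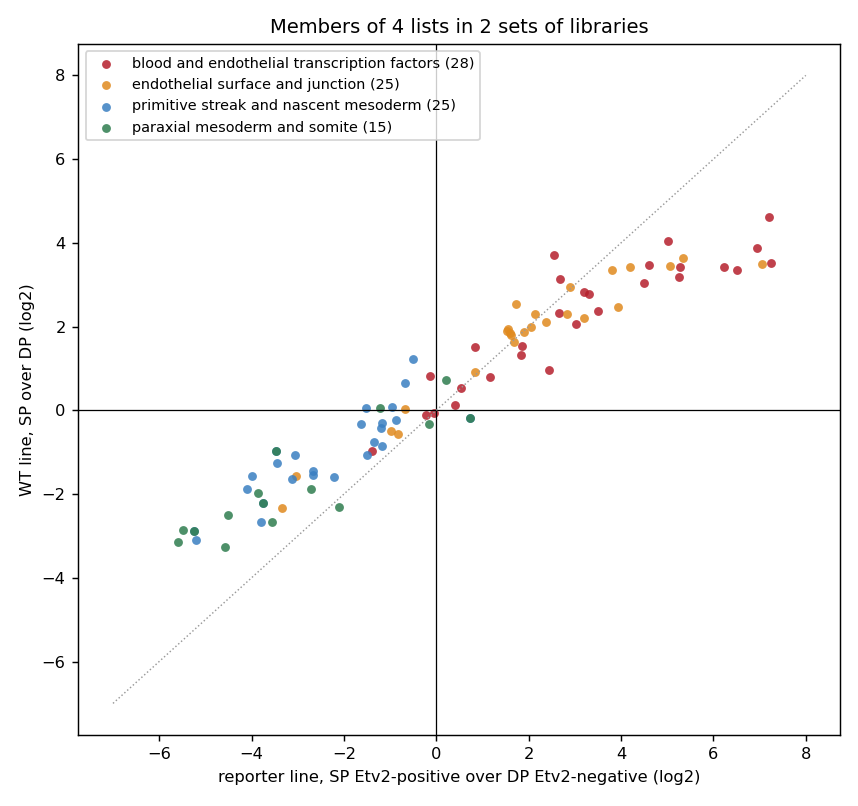
Log2 fold changes of the members of 4 lists, 1 point per gene, between the ends of the reporter line (horizontal) and between SP and DP cells of the WT line (vertical); the dotted line marks equal values. The axes share no library. Tal1 stands at 7.24 and 3.51.

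With forced Etv2, the genes of the ends were found in both directions. The contrast of iETV2 SP over WT DP called 8518 genes (52.3%), 4305 higher (26.4%) and 4213 lower (25.9%), and line, gate and doxycycline cannot be told apart in it. Of the 805 tested genes that were higher between the ends, 579 (71.9%) were higher and 84 (10.4%) lower, which is 15.1% and 2.01% of the genes called. Of the 913 lower genes, 450 (49.3%) were lower and 167 (18.3%) higher, 10.8% and 4.37% of those called. Shares over all genes tested in both sets were 24.9% higher and 27.2% lower. Cdh5 reached 306, 546 and 501 CPM in iETV2 SP cells, against 1.91, 2.23 and 1.22 CPM in WT DP, and Tek 248, 284 and 286 CPM against 1.37, 1.85 and 1.04 CPM. Both were far above every other library of that set. Nkx2-5, which rose between the ends, was at 0.537, 0.191 and 0.406 CPM against 2.97, 2.1 and 2.08 CPM, a log2 fold change of -2.65 (edgeR adjusted p = 6.38e-05). Col1a1 was at 7.21, 7.51 and 3.82 CPM against 99.2, 106 and 38.9 CPM, and the light chain gene Myl4 was lower by 4.00 on the log2 scale. Pou5f1, which fell between the ends, stood at 201, 153 and 175 CPM against 39.6, 54.1 and 43.9 CPM. By list, 12 of 16 heart muscle genes were lower and 2 higher, 17 of 20 lateral plate genes lower and 1 higher, 13 of 22 pluripotency genes higher and 4 lower, and 14 of 22 glycolysis genes higher and 1 lower. The streak genes were lower in 18 of 25 and higher in 1, and the endothelial surface genes higher in 23 of 25 and lower in 1. Whether these differences between the 2 sets exceed their error was not tested.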

How the data were processed

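RNA was sequenced from 21 libraries of sorted day 4 embryoid body cells. The deposited values are whole-number counts for 55487 Ensembl gene IDs, which the authors made with featureCounts on mm10, per the submitters' processing notes. Aligner and annotation are not given in the sources used here. The 9 WT and iETV2 files also held summary lines of the kind STAR writes, with 22.4 to 25.1% of entries, so the counting tool is in doubt for them. These lines were left out. Libraries were made with a stranded total RNA kit, per the labels' protocols.

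The 12 reporter-line and 9 other libraries were fitted separately with edgeR 4.0.16 in R 4.3.3: TMM scaling, filterByExpr, quasi-likelihood fits by group, two-sided tests, and Benjamini-Hochberg adjustment over all genes tested. A gene was called at an adjusted p below 0.05. CPM are scaled by TMM. A standard error is the size of the log2 fold change over the root of its F statistic. Tests were tried on simulated data.

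Named genes were Etv2, Kdr, Pdgfra and T, and the 12 largest increases and decreases among called genes of at least 5 CPM with separate groups. Up to 5 called members of each of 27 lists were added by absolute log2 fold change, both directions together. A further 4 per direction came from the contrast of the intermediate groups, with and without a difference at the ends. Others were chosen after their values were seen. The members and lists were chosen with earlier results of these data known. Symbols came from GENCODE M21 for 55227 IDs, and Aldoa, with 2 IDs, was read from the longer.

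Alternatives were other scalings and filters, DESeq2 1.42.0, a replicate block, a 2-fold minimum, only the compared groups in the fit, and leaving out single libraries. Same-numbered libraries of iETV2 SP and WT DP correlated at 0.326, 0.175 and 0.175 after group means were removed. Each passed 0.1, the rule used for pairing. The unlike-numbered iETV2 SP replicate 3 and WT DP replicate 2 reached 0.191, so the numbers do not single out pairs, and no label names what is shared. For WT SP and WT DP the same-numbered values were 0.498, 0.548 and 0.0712. The block moved no count of iETV2 SP over WT DP by over 1.5 times. Uniqueness is the share of 50-base windows of a transcript absent from transcripts of other genes.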

Additional observations from a re-analysis of the deposited data

Results flagged for a closer look

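For 20 of the 144 genes named, the effect of the Etv2 reporter on the level differed between the SP and the DP gate by the test of that difference (edgeR quasi-likelihood, Benjamini-Hochberg adjusted p below 0.05). Over all 17690 genes tested, the difference was called for 702 (3.97%). The named genes were picked on these same libraries, some by the contrast of the intermediate groups, so their count is no trait of the set. The values are the log2 effect in SP minus that in DP, and a negative value means that the reporter went with a smaller increase, or a larger decrease, in SP than in DP cells. Among genes of contraction and matrix they were -1.99 for Ryr2, -1.87 for Tnnc1, -1.18 for Myl4, -0.86 for Tpm1, -2.04 for Col1a1 and -0.86 for Fbln2. For growth factors and receptors they were -1.11 for Pdgfb, -1.84 for Pdgfc, -0.79 for Pdgfrb and -2.17 for Gdf6. The nitric oxide receptor subunit Gucy1b1 had -2.34, Tdo2 -2.77, Ahnak -1.70, Krt18 -1.78, Wscd2 -1.70 and the cyclin Ccnd2 -0.64. Positive values were found for Itga2b (2.65), Gata2 (1.12), Flt4 (0.77) and Fgf4 (1.93). Of these, Tnnc1 and Fgf4 were called in each of the 19 alternatives, while the other 18 lost the call at least once. Gata2 lost it in 13, Flt4 in 12, Itga2b and Ahnak in 11, Ccnd2, Pdgfc and Pdgfrb in 10, and Col1a1, Gucy1b1, Myl4, Tdo2 and Tpm1 in 9 each. Wscd2 lost it in 6, Krt18 and Ryr2 in 5, Gdf6 in 4, Pdgfb in 3 and Fbln2 in 1. No difference changed its sign in these alternatives.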

How the results depend on the processing

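Of 135 named genes called between the ends, 119 stayed called under every alternative run, and the 16 that lost the call at least once kept their direction. They are Apela, Bnip3, Ccnd2, Col1a2, Gdf3, Gucy1a1, Gucy1b1, Hoxb6, Junb, Mef2c, Pdgfc, Pdk1, Sox2, Spink1, T and Tdo2. Leaving out single libraries gave 6136 to 6808 genes called between the ends, 3024 to 3500 higher and 3112 to 3325 lower, and 1768 to 2002 at least 2-fold. A 2-fold minimum gave 1875.

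For DP Etv2-positive over SP Etv2-negative cells, single libraries left out gave 1207 to 2816 genes called (657 to 1525 higher, 550 to 1291 lower), and for WT SP over DP 1509 to 2683 (904 to 1470 higher, 570 to 1213 lower). When the fit held just the groups compared, the former had 1408 (753 higher, 655 lower), and without both libraries of high ribosomal RNA share 1768 (925 higher), a choice made after seeing the data. Among genes at least 2-fold higher between the ends, 120 to 245 were higher and 5 to 23 lower in that contrast without single libraries, and with no filter on low counts 291 and 79. DESeq2 gave 26 lower. Among genes at least 2-fold lower, 193 to 317 were lower and 2 to 10 higher, and with no filter 21 were higher. Of these lower genes, 0 to 1 were higher in WT SP without single libraries, 1 with no filter and 1 with DESeq2, and 110 were higher in iETV2 SP with a filter of 1 CPM in 3 libraries. The cause of these shifts was not tested.

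Replicate numbers were not taken to pair the ends (correlations 0.025, 0.228 and 0.168) or the intermediate groups (-0.115, 0.233 and 0.4). Yet replicate 3 had the lowest summed streak level of each reporter-line group. It was 1480 CPM in DP Etv2-negative, 444 in DP Etv2-positive, 639 in SP Etv2-negative and 362 in SP Etv2-positive cells. In the same order, its glycolysis sum was the highest, at 8890, 6460, 9400 and 6150 CPM. For lateral plate genes, replicate 3 was highest of DP Etv2-negative but lowest of SP Etv2-positive cells. The main fit held no term for such a shift. A replicate block gave 8146 genes called between the ends and 3746 in the intermediate contrast. With the block, 49 genes higher between the ends were lower in that contrast, and 16 lower ones were higher. It changed no other count by over 1.5 times.

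Genes not called between the ends changed sign. Over single libraries left out, the log2 values ran from -0.08 to 0.27 for Arhgef10l, -0.13 to 0.09 for St14, -0.27 to 0.10 for Grik3, -0.26 to 0.07 for Elf3, -0.39 to 0.01 for Gbp3, -0.05 to 0.47 for Wscd2, -0.05 to 0.22 for Pdgfrb and -0.02 to 0.07 for Kdr. Without both libraries of high ribosomal RNA share, Arhgef10l gave 0.00, St14 0.10, Grik3 0.10 and Elf3 0.05.

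With 3 replicates a group, 1 reporter line and low counts at the uncommitted end, the precision of the largest fold changes is limited.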
